A study of Homo sapiens with 6 samples.

Results

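The aldo-keto reductases are a superfamily of soluble enzymes that use NADPH to reduce aldehydes and ketones to alcohols. The members examined here were the human genes AKR1A1, AKR1B1, AKR1B10, AKR1C1, AKR1C2, AKR1C3, AKR1C4, AKR7A2 and AKR7A3, and every probe set that the platform annotation paired with 1 of these symbols alone was kept. This gave 8 probe sets of 7 genes out of the 32321 probe sets on the array. AKR1A1 and AKR1B1 had no such probe set, and their expression was not analysed here. The family was chosen by its values in the same comparison of DLD-1/DKK1 with DLD-1/Mock cells that is described below, so its differences are given as a description and not as a test.

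DLD-1 is a human colorectal adenocarcinoma line with a mutated APC gene. DLD-1/DKK1 cells had been transduced with a lentivirus carrying DKK1 under a doxycycline-inducible promoter, and DLD-1/Mock cells with the vector that carries no DKK1. Both vectors also encode a green fluorescent protein, and DKK1, a secreted inhibitor of Wnt signalling, carries a V5 tag. Cells of both groups, 3 dishes each, received doxycycline for a day, at 10 mg/ml by the labels and at the same figure in micrograms per ml by the study's methods. The study's methods give a typical share of transduced cells, and neither they nor the labels say if clones were picked. The sources do not say if the dishes trace back to separate transductions, and p-values then measure only the spread between dishes, which may be technical.

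AKR1C enzymes act on steroid hormones and other carbonyl compounds, and their genes lie side by side on chromosome 10. AKR1C1 inactivates progesterone, AKR1C2 reduces dihydrotestosterone and binds bile acids, AKR1C3 makes testosterone and prostaglandin F, and AKR1C4 is an enzyme of the liver that takes part in bile acid synthesis. Of the relatives, AKR1A1 is the general aldehyde reductase, AKR1B1 is aldose reductase of the polyol pathway, AKR1B10 is an intestinal reductase of retinaldehyde, and AKR7A2 and AKR7A3 reduce the dialdehyde of aflatoxin. Several AKR1C genes and AKR1B10 are known targets of the oxidative stress factor NRF2.

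The stretches just upstream of the AKR1C genes are shown because these genes are the branch of the family that is set against the other members below. RefSeq gave windows for 8 of the 9 members, all but AKR1B10, and the sequences below hold the 250 bases before each transcript start on GRCh38.p14, 5′ to 3′ on the strand of the gene. Capitals mark the CCAAT box, searched as CCAAT and, for the other strand, ATTGG. AKR1C1 lies at chr10:4963165-4963414 on the plus strand, AKR1C2 at chr10:5003858-5004107 on the minus strand, AKR1C3 at chr10:5048531-5048780 and, for a second start, chr10:5094164-5094413 on the plus strand, and AKR1C4 at chr10:5196587-5196836 on the plus strand.
AKR1C1: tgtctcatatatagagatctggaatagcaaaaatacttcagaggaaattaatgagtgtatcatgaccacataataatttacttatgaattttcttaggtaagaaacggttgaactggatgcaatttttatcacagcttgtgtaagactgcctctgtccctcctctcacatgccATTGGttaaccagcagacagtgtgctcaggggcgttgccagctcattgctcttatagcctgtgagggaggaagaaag
AKR1C2: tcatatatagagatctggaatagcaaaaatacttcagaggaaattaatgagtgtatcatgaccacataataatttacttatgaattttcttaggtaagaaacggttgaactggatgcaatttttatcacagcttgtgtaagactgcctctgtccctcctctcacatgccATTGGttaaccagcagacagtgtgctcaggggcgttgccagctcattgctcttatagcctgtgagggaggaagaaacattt
AKR1C3, window 1: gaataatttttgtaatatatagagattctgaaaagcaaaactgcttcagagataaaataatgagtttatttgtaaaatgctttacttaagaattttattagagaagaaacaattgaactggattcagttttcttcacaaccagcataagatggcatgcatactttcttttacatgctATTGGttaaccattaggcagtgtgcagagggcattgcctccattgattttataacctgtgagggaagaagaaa
AKR1C3, window 2: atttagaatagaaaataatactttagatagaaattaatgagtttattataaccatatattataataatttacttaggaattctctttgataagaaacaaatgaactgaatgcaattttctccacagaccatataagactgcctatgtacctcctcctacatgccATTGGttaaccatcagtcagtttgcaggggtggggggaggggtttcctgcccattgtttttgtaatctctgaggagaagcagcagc
AKR1C4: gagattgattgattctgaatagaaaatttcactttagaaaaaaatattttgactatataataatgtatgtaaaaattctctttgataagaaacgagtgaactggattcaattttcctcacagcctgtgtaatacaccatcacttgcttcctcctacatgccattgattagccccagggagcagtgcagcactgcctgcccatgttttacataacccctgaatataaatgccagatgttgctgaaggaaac

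The windows of AKR1C1 and AKR1C2 were nearly the same sequence, with 245 identical positions in 254 aligned columns (96.5%) and 1 mismatch, the rest being gaps. Windows 1 and 2 of AKR1C3 were 72.4% and 69.9% identical to that of AKR1C1, and 66.8% identical to each other. The window of AKR1C4 was 64.0% identical to that of AKR1C1. The CCAAT box, which is bound by the factor NF-Y, began 77 bases before the start of AKR1C1, 81 before that of AKR1C2, and 73 and 86 before the 2 starts of AKR1C3. Among the other members it was found in window 1 of AKR1B1, 98 bases before the start. It was not found in the window of AKR1C4, and 32% of all 35116 windows hold it. The core of the antioxidant response element through which NRF2 acts, TGACNNNGC on either strand, was in none of the AKR1C windows, against 10.9% of all windows. Among the other members it was found in those of AKR7A2. Only the 250 bases before each start were searched, so a core farther upstream of any member would not have been seen. The AP-1 site TGANTCA, which can overlap that core at its first letters, was in no window of a member, against 6.57% of all. TATAAA on either strand was in window 1 of AKR1C3 and in the window of AKR1C4, against 10.7% of all.

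AKR1C and the other members also differed in the base composition of these windows. The AKR1C windows held between 0 and 2 CG dinucleotides and 32.0 to 40.8% G and C. Those of AKR1A1, AKR1B1, AKR7A2 and AKR7A3 held 12 to 31 CG dinucleotides and 50.8 to 79.2% G and C, while the median of all windows was 11 and 58.0%. The windows of AKR7A2 overlap each other, as do those of AKR1B1, and the AKR1C windows share ancestry, so they are not independent.

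**Figure D1:**
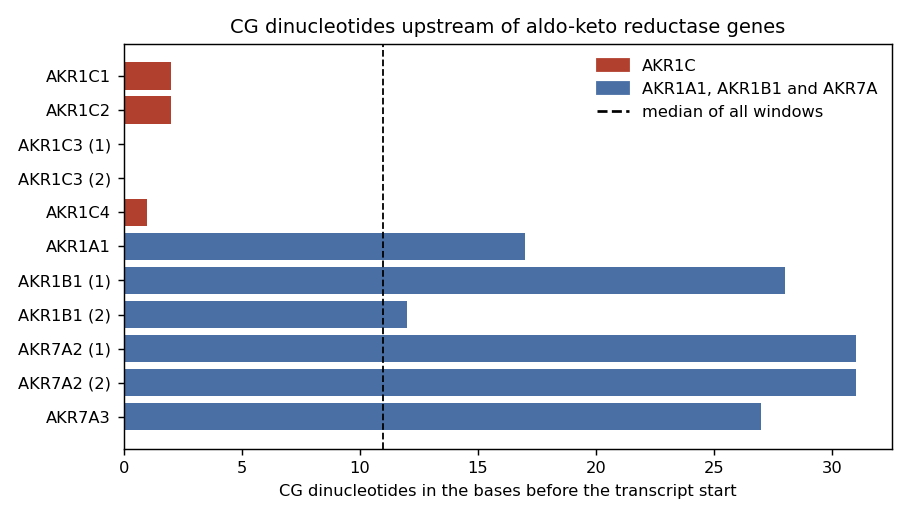
Number of CG dinucleotides (horizontal axis) in the 250 bases before each RefSeq transcript start, for AKR1C genes (red bars) and for AKR1A1, AKR1B1 and AKR7A genes (blue bars), with windows of the same gene numbered in brackets and the median of all windows, 11, as a broken line. The AKR1C bars reach at most 2 and the others 12 to 31.

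The arrays gave log2 expression values normalised by the authors, so that a difference of 1 is a doubling of the array value. As a check of the labels, DKK1 was at 12.30, 12.38 and 12.36 in the DLD-1/DKK1 arrays, against 5.15, 5.74 and 5.01 in the DLD-1/Mock arrays. The medians of the arrays ranged over 6.76 to 6.86. Mock 2 was the array least like the rest, with correlations of 0.9953 to 0.9969 to the other arrays across probe sets, while all other pairs had at least 0.9973. Markers of colorectal epithelium had a median percentile of 95.4 among all probe sets, with EPCAM at 98.7 and CDX2 at 89.1, while KRT20 was at 32.8. Percentiles place array values and do not compare amounts of RNA between genes. Markers of other cells ran over percentiles 9.83 to 56.6 for 7 leukocyte genes (PTPRC to CD68), 13.1 to 58.8 for 8 hepatocyte genes (CYP3A4 to SERPINA1) and 7.09 to 57.7 for 6 fibroblast genes (LUM to COL1A1). They ran over 23.0 to 41.7 for 4 endothelial genes and 12.7 to 36.5 for 4 genes of steroid-making cells. The leukocyte markers averaged 5.34 to 5.38 in the DLD-1/DKK1 arrays, against 5.43 to 5.52 in the DLD-1/Mock arrays. Of these 7 genes, 5 had a log2 fold change below 0, the lowest being CD14 at -0.27 and CD68 at -0.26, and 2 had one above. All samples were cultures of the DLD-1 line, and the part of these markers in the results was not tested. No marker passed an adjusted p of 0.05 in limma. In RNA of whole dishes, fewer cells that express a gene and less RNA per cell cannot be told apart.

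AKR1C3 had the largest difference of the family. Its log2 values were 8.62, 8.49 and 8.38 in DLD-1/DKK1 cells, against 7.81, 7.78 and 7.78 in DLD-1/Mock cells. The groups did not overlap, and a gap of 0.57 separated the lowest DLD-1/DKK1 dish from the highest DLD-1/Mock dish. The means were 8.50 ± 0.12 in DLD-1/DKK1 and 7.79 ± 0.02 in DLD-1/Mock (SD, n = 3 each). This was a log2 fold change of 0.71 with a standard error (SE) of 0.07, or 1.64-fold with a 95% interval of 1.47 to 1.83. By its size AKR1C3 ranked at place 26 of all 32321 probe sets. The DLD-1/DKK1 dishes spread more widely than the DLD-1/Mock dishes.

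AKR1C1 came next, although its 2 probe sets did not give the same size of difference. Probe set 8180376 had log2 values of 7.02, 6.96 and 7.09 in DLD-1/DKK1 cells and 6.57, 6.41 and 6.45 in DLD-1/Mock cells. These groups were separated by 0.39, and the log2 fold change was 0.55 (SE 0.06), or 1.46-fold with a 95% interval of 1.32 to 1.61. Probe set 7925918 had 6.51, 6.55 and 6.58 in DLD-1/DKK1 cells and 6.49, 6.18 and 6.44 in DLD-1/Mock cells. Here the groups were only 0.02 apart, Mock 2 lay well below the other arrays, and the log2 fold change was 0.17 (SE 0.08; 95% interval -0.03 to 0.38). It was 0.08 without Mock 2. The annotation ties the first of these probe sets to the RefSeq transcript of AKR1C1 and the second to a cDNA clone. The difference between their log2 fold changes was 0.37 (SE 0.07 from the spread over arrays).

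AKR1C2 had a smaller difference. Its log2 values were 7.50, 7.24 and 7.31 in DLD-1/DKK1 cells, against 7.15, 7.07 and 7.09 in DLD-1/Mock cells. The groups did not overlap, DKK1 1 being the highest array, and the log2 fold change was 0.25 (SE 0.07), or 1.19-fold with a 95% interval of 1.05 to 1.34. It was 0.175 without DKK1 1. The transcripts of AKR1C1 and AKR1C2 are near-identical copies, as are the windows printed above. How far their probe sets share signal was not tested, so the values of either gene are uncertain. Nor was signal shared with or between the other AKR1C probe sets tested.

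AKR1C4 was near the bottom of the scale, with its mean at percentile 14.9 of all probe sets. The log2 values were 4.64, 4.68 and 4.67 in DLD-1/DKK1 cells and 4.48, 4.46 and 4.55 in DLD-1/Mock cells. Again no array of one group overlapped the other, with a log2 fold change of 0.17 (SE 0.04; 95% interval 0.07 to 0.27). At this brightness the values were not shown to be above background. Of the 8 hepatocyte markers, CYP3A4 at 0.26 and FGB at 0.09 had a log2 fold change above 0 and 6 had one below, of which SERPINA1 was the lowest at -0.44. None of them passed, and their part in the values of AKR1C4 was not tested.

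**Figure D2:**
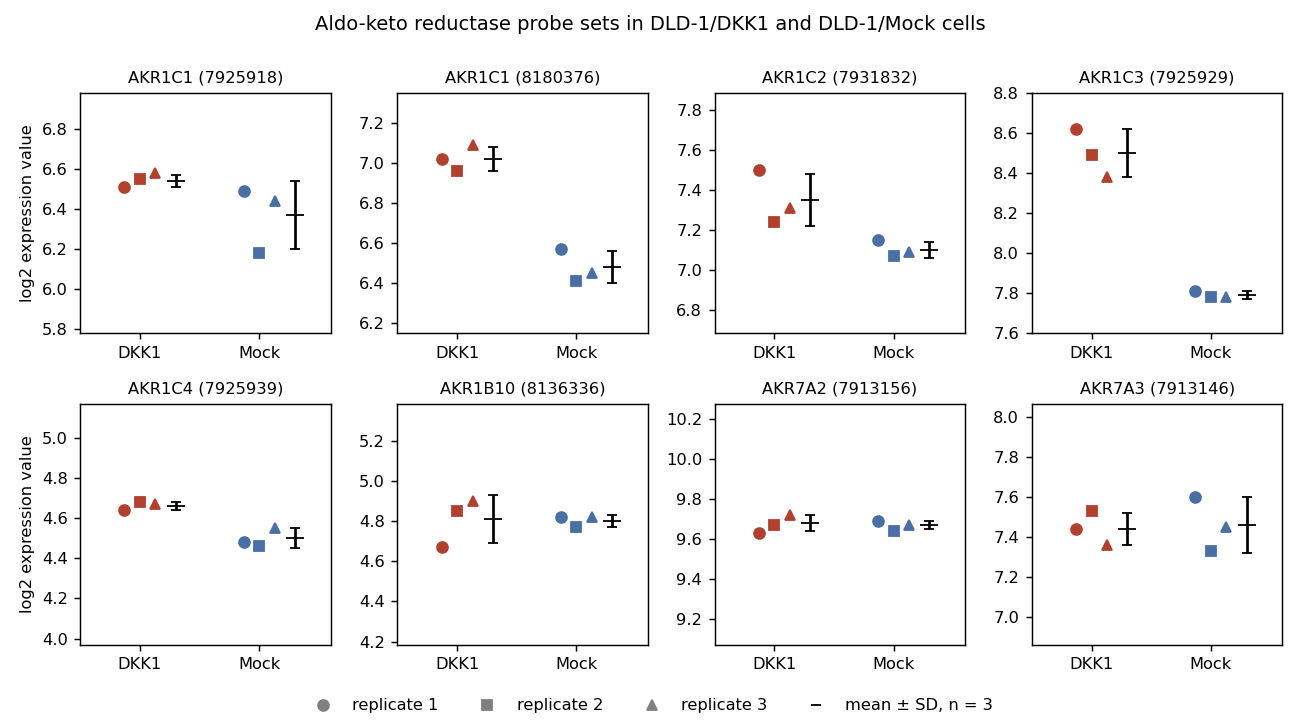
Log2 expression value (vertical axes, each spanning 1.2) of the 8 aldo-keto reductase probe sets in DLD-1/DKK1 (left) and DLD-1/Mock (right) cells, with a symbol for each replicate and a bar with whiskers for the mean ± SD (n = 3). The AKR1C groups do not overlap, most widely for AKR1C3 with a gap of 0.57, and those of AKR1B10, AKR7A2 and AKR7A3 do.

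The members outside AKR1C had differences near 0. AKR1B10 was dim, at percentile 19.6, with log2 values of 4.67, 4.85 and 4.90 in DLD-1/DKK1 cells and 4.82, 4.77 and 4.82 in DLD-1/Mock cells. The groups overlapped, and the log2 fold change of 0.00 had a 95% interval of -0.15 to 0.16. AKR7A2, at percentile 81.1, had 9.63, 9.67 and 9.72 in DLD-1/DKK1 cells and 9.69, 9.64 and 9.67 in DLD-1/Mock cells. Its values differed little between any of the dishes, and its log2 fold change of 0.01 had the interval -0.09 to 0.11. AKR7A3 had 7.44, 7.53 and 7.36 in DLD-1/DKK1 cells and 7.60, 7.33 and 7.45 in DLD-1/Mock cells. These groups overlapped throughout, and the log2 fold change was -0.02 (95% interval -0.21 to 0.17). The signs of AKR7A2 and AKR7A3 turned under another normalisation, quantile or cyclic loess.

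**Figure D3:**
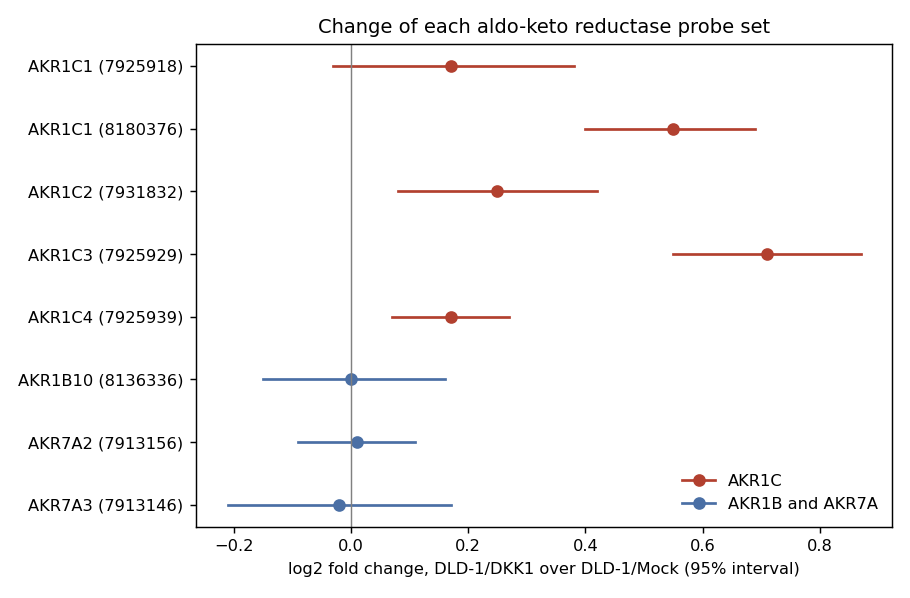
Difference in log2 value, DKK1 cells over Mock cells (horizontal axis), of the 8 aldo-keto reductase probe sets, with points for the limma estimate and lines for its 95% interval (3 arrays per group), AKR1C in red and the others in blue. The AKR1C points run from 0.17 to 0.71 and the others from -0.02 to 0.01.

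Set side by side, the 5 AKR1C probe sets had a median log2 fold change of 0.25 (range 0.17 to 0.71) and the 3 others one of 0.004 (range -0.02 to 0.01), where the median of all probe sets was -0.0063. Averaged over the AKR1C probe sets, the dishes lay 0.41, 0.34 and 0.36 above the DLD-1/Mock mean in DLD-1/DKK1, against 0.05, -0.07 and 0.02 in DLD-1/Mock. The same average over AKR1B10, AKR7A2 and AKR7A3 was -0.06, 0.04 and 0.02 in DLD-1/DKK1 and 0.06, -0.06 and 0.00 in DLD-1/Mock. The AKR1C averages were thus apart between the groups and those of the other members were mixed. Mock 2 was the lowest of the DLD-1/Mock arrays for all 8 probe sets, and without it the AKR1C median was 0.231.

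In the fit across all probe sets, 1 of the 8 member probe sets passed an adjusted p of 0.05, AKR1C3 (limma adjusted p = 0.0417), and the nearest outside was AKR1C1 probe set 8180376 (limma adjusted p = 0.0534). Of all probe sets, 0.0866% passed, 0.0371% of all probe sets being higher in DLD-1/DKK1. All 5 AKR1C probe sets and none of the 3 others had every DLD-1/DKK1 array above every DLD-1/Mock array, as had 7.91% of all probe sets. Since the family was selected on this comparison, nothing is read from these counts. AKR1C3 did not pass with any one of the 6 arrays left out. The limma adjusted p was then between 0.0824 (without DKK1 3) and 0.212 (without DKK1 2), while the log2 fold change stayed between 0.648 and 0.770. These fits rest on fewer arrays, so losing the call does not single out any array. The call was also lost without moderation of the variances (limma adjusted p = 0.227) and with the replicate number as a block (limma adjusted p = 0.223).

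The size of the difference varied among the AKR1C probe sets, which is given as a description. The log2 fold change of AKR1C3 was above that of AKR1C2 by 0.46 (SE 0.06), above that of AKR1C4 by 0.54 (SE 0.09) and above that of AKR1C1 probe set 7925918 by 0.54 (SE 0.13). It was above that of AKR1C1 probe set 8180376 by 0.16 (SE 0.10), where the difference between the 2 probe sets overlapped between the groups, so AKR1C3 was not separated from this probe set beyond the spread. AKR1C1 probe set 8180376 exceeded AKR1C2 by 0.30 (SE 0.08). AKR1C2, AKR1C4 and AKR1C1 probe set 7925918 were not separated from each other, with differences of 0.01 to 0.08.

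The genes next to the AKR1C cluster were read in the order of a RefSeq gene table. Within the cluster AKR1C8, a further AKR1C gene, was at 5.64 ± 0.07 in DLD-1/DKK1 and 5.55 ± 0.12 in DLD-1/Mock cells (SD, n = 3 each), with a log2 fold change of 0.09 (SE 0.07) and overlapping groups. On one side, AKR1E2 was at -0.12 (SE 0.04; limma adjusted p = 0.51) and the pseudogene AKR1C6P at -0.05, followed outwards by the transcription factor KLF6 at -0.08, the mitochondrial protease PITRM1 at 0.06 and the glycolytic enzyme PFKP at 0.02. On the other side, UCN3 was at -0.11, TUBAL3 at -0.01, the exchange factor NET1 at 0.08, CALML5 at -0.11 and CALML3 at -0.12. None of these 11 genes passed, but only 0.0866% of all probe sets did, so this count says little. Their log2 fold changes of -0.12 to 0.09 all lay below those of the AKR1C members. As the family was chosen by this comparison, that is given as a description. The limma intervals of AKR1C8 (-0.08 to 0.26) and AKR1C1 probe set 7925918 (-0.03 to 0.38) overlapped. The groups did not overlap for NET1, higher in DLD-1/DKK1, or for AKR1E2 and CALML5, both lower. Of all 32321 probe sets, 2555 were likewise wholly higher and 2763 wholly lower, so nothing is read from this.

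**Figure D4:**
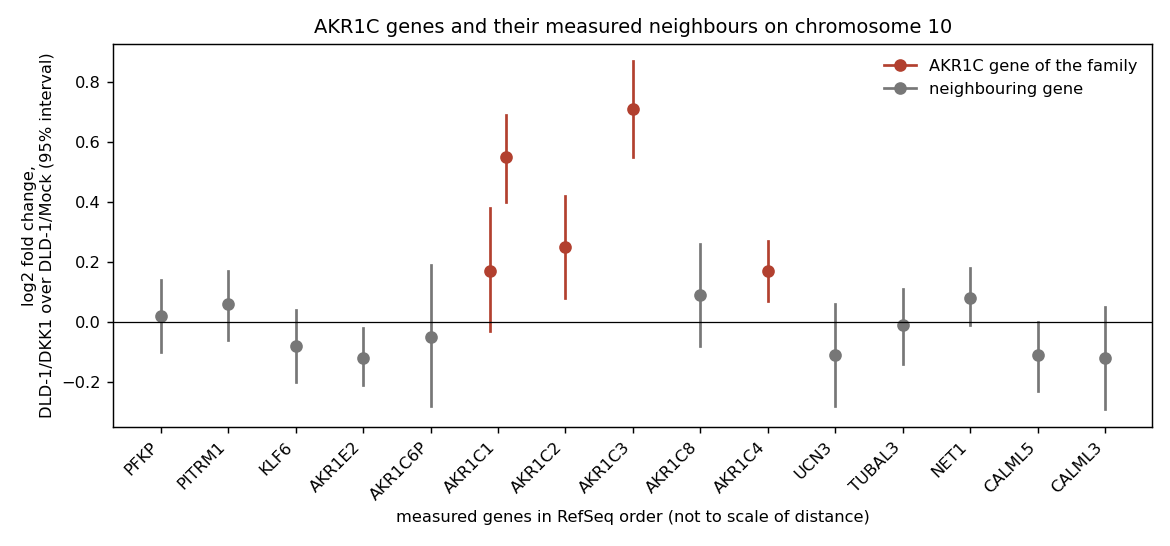
Difference in log2 value, DKK1 cells over Mock cells (vertical axis; points with 95% intervals, 3 arrays per group) of the AKR1C genes (red) and of the measured genes around them (grey), in RefSeq order along chromosome 10 without regard to distance. AKR1C3 lies highest at 0.71, and the neighbours lie between -0.12 and 0.09.

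Other genes of the superfamily were measured for comparison, 6 of the 8 listed. Of these 0 passed in limma, 1 was above 0 and 5 below, and the median log2 fold change was -0.10. The liver enzyme AKR1D1, which reduces steroids in bile acid synthesis, was at 4.52 ± 0.11 in DLD-1/DKK1 and 4.56 ± 0.11 in DLD-1/Mock cells (SD, n = 3 each). KCNAB2, a potassium channel subunit of the same fold, was at 7.33, 7.30 and 7.35 in DLD-1/DKK1 cells and 7.45, 7.56 and 7.49 in DLD-1/Mock cells. The groups did not overlap and the log2 difference was -0.17 (SE 0.04), which did not pass (limma adjusted p = 0.398). Of all 32321 probe sets, 2763 likewise had every DLD-1/DKK1 array below every DLD-1/Mock array.

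Pathways in which the AKR1C enzymes take part were counted next, with 1 probe set per gene. Beside them, the median log2 fold change over 18404 genes was -0.0072, with 8539 of these genes above 0 and 11 passing as higher and 14 as lower. NRF2 and its targets other than aldo-keto reductases had 19 of 22 measured genes above 0, a median of 0.07 and 0 genes that passed. GCLM and GCLC, the subunits of the enzyme that starts glutathione synthesis, had log2 fold changes of 0.21 (SE 0.05; limma adjusted p = 0.40) and 0.18 (SE 0.05; limma adjusted p = 0.452). AKR1B10, itself an NRF2 target, was at 0.00 but dim, at percentile 19.6. The part of NRF2 in the AKR1C values was not tested. The short-chain carbonyl reductases, which share substrates with the aldo-keto reductases, had 6 of 13 genes above 0 and 0 that passed, with DHRS7 at 0.21 and HSDL1 at 0.15.

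Steroid hormone enzymes outside the family had 7 of 21 genes above 0, a median of -0.03 and 0 that passed. HSD3B1, which makes the substrate ketosteroids, was at -0.17 (SE 0.06; limma adjusted p = 0.516). Among 21 genes of prostaglandin synthesis, breakdown and signalling, 8 were above 0 and 0 passed. PTGS2, the inducible cyclooxygenase upstream of the step that AKR1C3 catalyses, was at 6.31, 6.40 and 6.11 in DLD-1/DKK1 cells and 5.85, 5.66 and 5.72 in DLD-1/Mock cells. Its groups were apart, yet it did not pass, with a difference of 0.53 (SE 0.09; adjusted p in limma 0.155). PTGS1, the constitutive form, was at -0.20 (SE 0.06). Of 14 genes of retinoid metabolism, 3 were above 0 and 1 passed, ALDH1A1, which oxidises retinaldehyde, at 0.70 (SE 0.05; limma adjusted p = 0.0119). BCO1, which cleaves beta-carotene into retinaldehyde, was at -0.16.

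The profile of the AKR1C genes over the 6 arrays was compared with that of 5228 probe sets of other genes with an SD of at least 0.1. PGM2L1, a sugar phosphate enzyme, was most like the mean of the AKR1C probe sets, with a Pearson correlation of 0.997. It was at 8.55, 8.50 and 8.47 in DLD-1/DKK1 cells and 8.12, 7.92 and 8.05 in DLD-1/Mock cells. SERPINE2, a secreted protease inhibitor, CEACAM1 and ALCAM, both adhesion molecules, and TTC39C followed with correlations down to 0.993. All of them were lowest in Mock 2, as the AKR1C mean was. A correlation of at least 0.95 was reached by 78 of the probe sets, and that of DKK1 was 0.961. The arrays fall into 2 groups, so a probe set that differs between them tends to have a high value, and these are given as a description. Among themselves, each AKR1C probe set had a correlation with the mean of the others of 0.97 (AKR1C1 probe set 8180376), 0.94 (AKR1C3), 0.92 (AKR1C4), 0.87 (AKR1C2) and 0.71 (AKR1C1 probe set 7925918). How far signal shared between these probe sets adds to that was not tested.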

How the data were processed

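RNA from 3 dishes of each cell population was hybridised to single-colour whole-transcript Affymetrix arrays. The authors deposited log2 values made by robust multichip averaging, a procedure that subtracts background, forces the arrays to a like distribution and summarises each probe set. A change shared by most transcripts is removed by this, and differences of dim probe sets are compressed. The sources name no versions of the tools. The values were used as deposited. Levels of different probe sets are not comparable as amounts of RNA, so the percentiles given only place a probe set by its array value. Precision is limited by having 3 arrays per group.

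Of 32321 probe sets, 19158 carried 1 gene symbol, 1388 several and 11775 none, and only the first were named. Symbols were updated through the gene number, which a RefSeq table (GRCh38.p14) held for 19128. Groups came from the sample titles. All probe sets were fitted with limma 3.58.1 in R 4.3.3 (lmFit, eBayes with the default prior, 4 residual and 2.56 prior degrees of freedom, two-sided), and p-values were adjusted over all of them by Benjamini and Hochberg, with a threshold of 0.05. Fold changes are DLD-1/DKK1 over DLD-1/Mock. An exact permutation test of 3 arrays against 3 cannot go below p = 0.1 and was not used. The fit was tested on simulated data. For lists, the probe set with the highest mean stood for a gene. Named were all members, DKK1, up to 2 genes per list with an unadjusted p under 0.05, up to 5 measured neighbours on each side of the cluster and the 5 genes with the likest profile. Single markers and AKR1D1 were named after their values were seen. Members and lists were chosen with earlier results of these data known. Upstream windows were aligned globally with Biopython 1.88. No scan dates or batches were at hand. Alternatives were other normalisations and centring, filters, priors, array weights, the replicate number as a block and each array left out.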

Additional observations from a re-analysis of the deposited data

How the results depend on the processing

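AKR1C3 kept its direction in all of them and passed in 7 of the 9 that kept all arrays; it did not pass without moderation (0.710, limma adjusted p = 0.227) or with the replicate number as a block (0.710, limma adjusted p = 0.223). With 1 array left out its log2 fold change was 0.648 to 0.770 (limma adjusted p = 0.0824 to 0.212), past the threshold in 0 of 6 fits. The number of member probe sets that passed was 2 after quantile normalisation, after median centring, among annotated probe sets and with array weights, 0 without moderation and 0 with the replicate block, and 0 to 0 with 1 array left out. The second was AKR1C1 probe set 8180376 each time. Fits that leave an array out rest on fewer arrays, and otherwise the cause was not tested.

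The AKR1C median was 0.301 after median centring, 0.479 over the 2 probe sets at or above the median brightness, 0.397 with 1 probe set per gene and 0.193 to 0.302 with 1 array left out. The median of the other members stayed between -0.015 and 0.056. The members near 0 changed sign. AKR1B10 was at -0.011 with array weights and -0.044 to 0.071 with 1 array left out. AKR7A2 was at -0.011 after quantile normalisation, -0.010 after cyclic loess, -0.005 with array weights and -0.015 to 0.028 with 1 array left out. AKR7A3 was at 0.019 after quantile normalisation, 0.011 after cyclic loess, 0.034 after median centring and -0.083 to 0.052 with 1 array left out. The AKR1C probe sets kept their direction in every fit that held them. For same-numbered arrays of the groups, the deviations from the group means had correlations of 0.105, 0.008 and -0.137. Other pairs across the groups had -0.235 to 0.225. With 3 arrays per group these values cannot decide if same-numbered dishes were handled together. Dim members, AKR1C4 and AKR1B10, are those for which brightness limits what can be seen.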
